A study of Mus musculus with 4 samples.

Results

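The 8 chemokine mRNAs described here, Ccl2, Ccl3, Ccl4, Ccl7, Ccl9, Cxcl2, Cxcl10 and Cxcl16, were chosen by name from the chemokine genes measured in an actinomycin D time course of RAW264.7 cells. They are 8 of 41324 genes in the deposited table, and the choice was made with earlier results of these data known. RAW264.7 is an established mouse macrophage line, and actinomycin D is an inhibitor of transcription, so its addition is used to follow the loss of mRNA made before. The levels given here are relative between libraries and not amounts per cell, so a value above the untreated level means a larger share of the RNA compared and does not by itself show newly made RNA. The groups were cells after 2, 4 or 6 h with 10 µg/ml actinomycin D and untreated cells at 0 h. Each time had 1 library of cytoplasmic RNA, depleted of ribosomal RNA, so no time had a replicate and every course comes from 4 libraries. All 4 libraries came from 1 cell line without a stimulus named in the labels. The line stands in for macrophages only as far as a cultured line does.

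Of the 8 chemokine mRNAs, 5 passed the abundance filter, a mean of at least 1 CPM (counts scaled to a common library size) over the 4 libraries, and were tested. These were Ccl2, Ccl3, Ccl4, Ccl9 and Cxcl16. The mean levels of Ccl7, Cxcl2 and Cxcl10 were 0.327, 0.655 and 0.970 CPM, and these mRNAs are described by their counts. Total counts were between 12762100 at 6 h and 70289647 at 4 h, which makes the 6 h values the least precise. Of 11 macrophage markers, 10 passed the filter, and their summed level was between 4144 and 5434 CPM. Of 28 markers of 7 other cell types, 12 were at 0 in every library, and all 28 together came to between 3.19 and 3.51 CPM. The B-cell receptor gene Cd79b was the one marker of another type above the filter, at a mean of 1.42 CPM.

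Chemokines are small secreted proteins that bind G-protein-coupled receptors on leukocytes and direct their migration. The CC and CXC classes are told apart by the spacing of conserved cysteines. CC ligands such as Ccl2 and Ccl3 mainly attract monocytes, macrophages and T cells. CXC ligands attract neutrophils in the case of Cxcl2 and activated T cells in the case of Cxcl10. Many chemokine mRNAs carry AU-rich elements in the 3' untranslated region (UTR), where proteins of the Zfp36 family can recruit the decay machinery and Elavl1 can oppose it.

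All 8 chemokine mRNAs held the core AU-rich pentamer ATTTA in the longest annotated 3' UTR. A window of 30 bases from 7 of them is given, 5′ to 3′ on the strand of the gene, with the pentamers in capitals, because the letters show how the pentamers are spaced. Where pentamers overlap, the shared base is printed within 1 capital run. The Cxcl2 window holds the overlapping copies that form the longer nonamer TTATTTATT, and the Ccl3 window holds a pair side by side.
Ccl2: aatattaaacttATTTAacttattgatgtt
Ccl7: attaatatttttATTTAattagccatgtac
Ccl3: ttgaaattttATTTAATTTAatcctattgg
Ccl9: tccATTTAtacagtggatctcATTTActga
Cxcl2: ATTTATTTAtctatgtATTTATTTATTTAt
Cxcl10: ctttgtctctccATTTAcacagacactgag
Cxcl16: agctaagatgttATTTAgtccaagccagcc

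The windows were read from GENCODE transcripts of the mm10 build (GRCm38). Those on the plus strand were chr11:82037206-82037235 in Ccl2, chr11:82047255-82047284 in Ccl7 and chr5:90905328-90905357 in Cxcl2. Those on the minus strand were chr11:83648075-83648104 in Ccl3, chr11:83573241-83573270 in Ccl9, chr5:92347670-92347699 in Cxcl10 and chr11:70455102-70455131 in Cxcl16. Each lies in the 3' UTR of its gene.

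The whole UTRs differed in how many pentamers they held. Cxcl2 had 11 in 1494 bases and 4 copies of the nonamer, which no other chemokine here held. Ccl3 and Ccl9 each had 5, but the Ccl3 UTR is 409 bases long and the Ccl9 UTR 2465, so the densities were 12.2 and 2.03 per kb. Ccl4 had 2 in 302 bases (6.62 per kb), Ccl7 2 in 435 bases (4.60 per kb) and Ccl2 1 in 275 bases (3.64 per kb). Cxcl10 had 3 in 996 bases (3.01 per kb) and Cxcl16 2 in 1421 bases (1.41 per kb). All 8 densities lay above the median of 1.33 per kb over the 9605 tested genes with an annotated 3' UTR, whose median UTR length was 1190 bases. Of those genes, 70.6% held at least 1 pentamer, 8.38% held at least 1 nonamer, 0.406% were at or above the density of Ccl3 and 2.05% at or above that of Cxcl2. At least 4 nonamers stood in 0.260%. The letters were searched on the sense strand only, and every nonamer contains the pentamer. A match is a description of the sequence and was not tested as a site of binding or decay.

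After transcription was stopped the 8 mRNAs did not share a course. Ccl4 and Cxcl2 stood at between 17.8 and 36.8% of their untreated level in every later library, on a common scale set with TMM factors. Ccl2 and Ccl3 were below the untreated level at 2 h and above it at 6 h on that scale. Ccl9 stood above it at each later time (with the deposited divisors only at 4 and 6 h), and Cxcl16 was lower at each step (with total counts above untreated at 2 and 4 h). Ccl7 and Cxcl10 had too few counts to be told apart from their untreated level at any time.

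**Figure D1:**
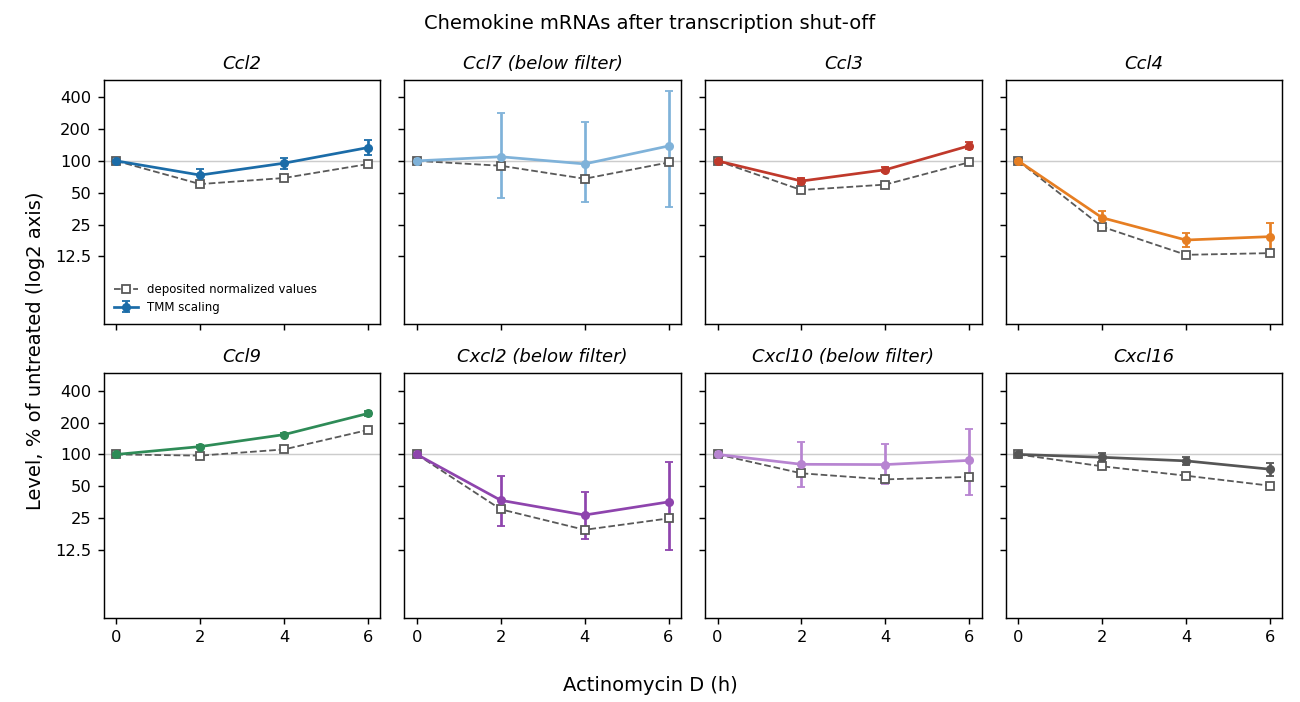
Level of each chemokine mRNA as a percentage of the untreated library (log2 axis) against hours of actinomycin D, from a lone library per time. Filled circles use TMM scaling with exact 95% intervals for counting error and open squares the deposited normalized values; at 6 h Ccl4 was at 19.2% and Ccl9 at 244% on TMM scaling, and Ccl2 and Ccl3 lie above 100% by TMM scaling but below it by the deposited values.

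Across all tested genes, a straight line over time fell (edgeR quasi-likelihood test, adjusted p under 0.05 after Benjamini-Hochberg correction over 10837 genes) for 17.2% and rose for 8.63%. Of the 5 chemokines tested, 1 fell (Ccl4) and 1 rose (Ccl9). A curved course was tested with the quadratic time term. It bent upward, with a later course higher than the early course would give, for 19% of all tested genes, and downward for 12.1%. Of the 5 chemokines, 4 bent upward (Ccl2, Ccl3, Ccl4 and Ccl9). None bent downward in edgeR, at an unadjusted p under 0.05 or in DESeq2, and 1 did with libraries scaled to total counts (Cxcl16). These tests have 2 residual degrees of freedom for the line and 1 for the curve. Without the untreated library, 3 chemokines rose (Ccl2, Ccl3 and Ccl9), and without that library or the 4 h library none fell. Over all 10837 tested genes, 786 rose and 1689 fell without the untreated library, and 351 fell without the 4 h library.

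The scale on which the libraries are compared matters for these courses. Relative to TMM scaling, the median tested gene at 6 h was shifted by 0.17 on the log2 scale with total counts, by −0.35 with 80 ribosomal protein mRNAs as the standard and by −0.52 with the divisors behind the authors' normalized values. In bulk RNA, fewer cells and less RNA per cell cannot be told apart, and which scaling is right was not tested. Percentages below are on TMM scaling, with exact 95% intervals that cover counting error only, not the variation between cultures.

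Ccl2, which recruits monocytes through Ccr2, had 412, 430, 977 and 221 counts at 0, 2, 4 and 6 h. Its scaled level was 13.5, 9.93, 12.9 and 18.1 CPM. It thus had a minimum at 2 h, where it stood at 73.4% of the untreated level (95% interval 64.0 to 84.2%), and it was at 95.1% at 4 h and 134% (113 to 158%) at 6 h. Each later step was upward, at 130% (116 to 145%) between 2 and 4 h and at 140% (121 to 163%) between 4 and 6 h. The bend was 0.058 ± 0.013 log2 per h squared (SE, edgeR adjusted p = 0.0119). It did not pass with total counts (adjusted p = 0.285) or with DESeq2's Wald test (adjusted p = 0.129). The line did not pass (0.08 ± 0.05 log2 per h, SE, edgeR adjusted p = 0.300). The 6 h level was at 105% with ribosomal protein scaling and at 93.2% with the deposited divisors, so it lay below the untreated level on that last scale. With total counts Ccl2 was at 97.3, 120 and 150% of untreated at 2, 4 and 6 h, so the low level at 2 h was nearly absent there.

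Ccl2 lies on chromosome 11 (mm10, 82035571 to 82037453, plus strand), 8.258 kb before Ccl7. The predicted gene Gm17268 covers all 1883 bases of it on the opposite strand and was at 0 counts in all 4 libraries. Whether the counting used strand is not stated in the labels or headers.

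Ccl7, the neighbour of Ccl2 and also a monocyte attractant, had 9, 14, 21 and 5 counts at 0, 2, 4 and 6 h. Its level at 6 h was 138% of untreated with an interval of 36.4 to 459%. No change in either direction was detectable at this depth. Counted without the filter, its line gave 0.04 log2 per h (edgeR adjusted p = 0.830). Its ratio to Ccl2 within a library was 0.0218, 0.0326, 0.0215 and 0.0226 at 0, 2, 4 and 6 h, with overlapping intervals.

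Ccl3 and Ccl4 are the macrophage inflammatory protein pair, which attract monocytes and T cells, and their genes lie 13.228 kb apart on opposite strands of chromosome 11 (Ccl3, 83647844 to 83649355, minus strand; Ccl4, 83662584 to 83664683, plus strand). Their courses parted. Ccl3 had 1712, 1569, 3517 and 955 counts at 0, 2, 4 and 6 h, or 56.2, 36.2, 46.3 and 78.1 scaled CPM. Ccl4 had 609, 251, 271 and 47 counts, or 20.0, 5.80, 3.57 and 3.84 scaled CPM. Both were lower at 2 h than untreated, and Ccl3 alone of the pair stood above the untreated level at 6 h.

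Ccl3 was at 64.4% (60.1 to 69.1%) of untreated at 2 h, at 82.4% (77.7 to 87.3%) at 4 h and at 139% (128 to 150%) at 6 h. The step between 4 and 6 h, at 169% (157 to 181%), was larger than the step between 2 and 4 h, at 128% (120 to 136%). Its bend was 0.086 ± 0.008 log2 per h squared (SE, edgeR adjusted p = 0.000185). Its line did not pass, at 0.08 ± 0.07 log2 per h (SE, edgeR adjusted p = 0.367). It was −0.07 without the 6 h library. With the deposited divisors Ccl3 at 6 h stood at 96.9%, just under the untreated level. With total counts Ccl3 was at 85.4, 104 and 156% of untreated at 2, 4 and 6 h, so its 4 h level lay above untreated there.

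Ccl4 was at 29.0% (24.9 to 33.6%) of untreated at 2 h and at 17.8% (15.4 to 20.6%) at 4 h. No further drop was detectable on TMM scaling, with 19.2% (14.0 to 25.9%) at 6 h and a last step of 108% (77.2 to 147%). Over the 5 scalings its 6 h level was between 13.4 and 21.6%. The bend was 0.12 ± 0.016 log2 per h squared (SE, edgeR adjusted p = 0.00102). The line was −0.41 ± 0.10 log2 per h (SE; adjusted p = 0.0462 in edgeR), which lay close to the threshold. It missed the threshold with ribosomal protein scaling (adjusted p = 0.0550), with robust empirical Bayes (0.0522), without the untreated library (0.0504) and without the 4 h library (0.0960), always in the same direction.

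The ratio of Ccl4 to Ccl3 counts within a library needs no scaling between libraries. It was 0.356, 0.160, 0.0771 and 0.0492 at 0, 2, 4 and 6 h. The 6 h interval (0.0359 to 0.0660) lay below the untreated interval (0.324 to 0.390) without overlap, and each library was lower than the one before. The ratio of Ccl2 to Ccl3, by contrast, was 0.241, 0.274, 0.278 and 0.231, and its interval at 6 h (0.199 to 0.268) overlapped the untreated interval (0.216 to 0.268). Counting intervals that overlap do not show that the ratio was unchanged.

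**Figure D2:**
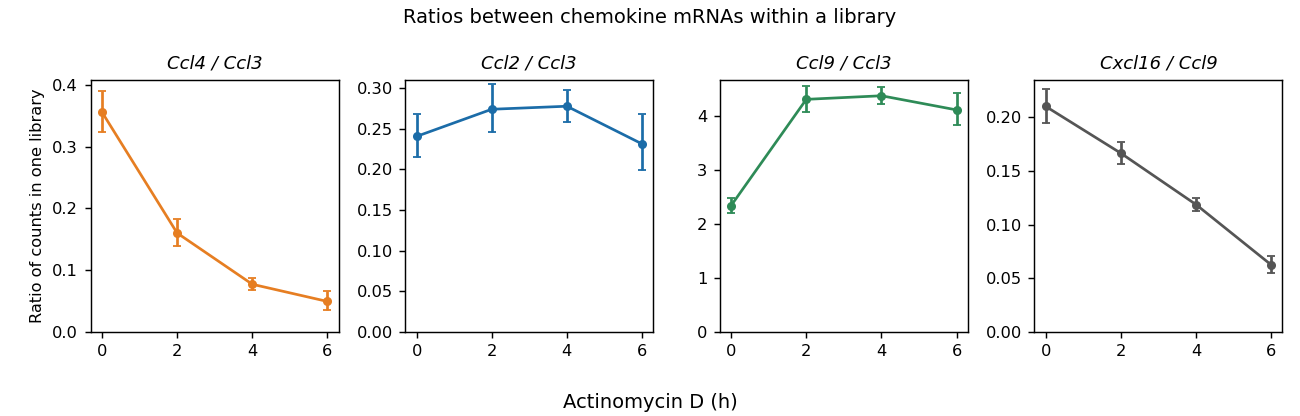
Ratio of counts of 2 chemokine mRNAs in the same library against hours of actinomycin D, with exact 95% intervals for counting error and 1 library at each time. Ccl4 over Ccl3 and Cxcl16 over Ccl9 are lower at each later time, Ccl9 over Ccl3 is near 4 in the treated libraries and 2.34 in the untreated one, and Ccl2 over Ccl3 stays between 0.231 and 0.278.

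Ccl9, a mouse CC chemokine that binds Ccr1, was the most abundant chemokine by counts in every library. It had 4000, 6747, 15357 and 3920 counts at 0, 2, 4 and 6 h, or 131, 156, 202 and 320 scaled CPM. On TMM scaling every later library was above the one before, at 119% (114 to 123%), 154% (149 to 159%) and 244% (233 to 255%) of untreated at 2, 4 and 6 h. The line rose by 0.21 ± 0.02 log2 per h (SE, edgeR adjusted p = 0.0180). The bend was 0.026 ± 0.0042 log2 per h squared (SE, edgeR adjusted p = 0.00267). At 6 h Ccl9 was above untreated under all 5 scalings, between 170 and 274%, while at 2 h it was at 97.5% with the deposited divisors. Its line missed the threshold with ribosomal protein scaling (adjusted p = 0.0504) and the deposited divisors (0.0544). The bend was −0.010 with total counts (adjusted p = 0.594). Its gene lies on chromosome 11 (83572919 to 83578636, minus strand), 69.207 kb before Ccl3.

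Ccl9 also took a growing share of the chemokine counts. The 8 mRNAs together had 7659, 10196, 22062 and 5411 counts at 0, 2, 4 and 6 h, or 252, 236, 291 and 442 scaled CPM. Ccl9 was 52.2, 66.2, 69.6 and 72.4% of these counts, and Ccl3 22.4, 15.4, 15.9 and 17.6%. The ratio of Ccl9 to Ccl3 was 2.34 (2.21 to 2.47) in the untreated library and 4.30, 4.37 and 4.10 at 2, 4 and 6 h. It thus shifted within the first interval sampled, and the 3 treated libraries were close to each other.

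Cxcl2, a neutrophil attractant that binds Cxcr2, had 42, 22, 28 and 6 counts at 0, 2, 4 and 6 h. Its scaled level was 1.38, 0.508, 0.369 and 0.491 CPM. It was at 36.8% (20.9 to 63.1%) of untreated at 2 h, 26.7% (16.0 to 44.1%) at 4 h and 35.6% (12.4 to 84.1%) at 6 h. All 3 intervals lie below 100%. Tested without the filter, neither its line (−0.33 log2 per h, edgeR adjusted p = 0.104) nor its bend (0.11, adjusted p = 0.197) passed. Its gene is on chromosome 5 (90903871 to 90905938, plus strand).

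Cxcl10, an interferon-induced ligand of Cxcr3, had 34, 39, 68 and 12 counts at 0, 2, 4 and 6 h. It was at 80.7% (49.6 to 132%), 80.2% (52.4 to 125%) and 87.8% (41.4 to 174%) of untreated at 2, 4 and 6 h. All 3 intervals span 100%, so no change was detectable at this depth. The ratio of Cxcl2 to Cxcl10 was 0.564, 0.412 and 0.5 at 2, 4 and 6 h, against 1.24 in the untreated library. The untreated interval (0.767 to 2.00) overlapped those at 2 h (0.319 to 0.975) and 6 h (0.154 to 1.44) but not that at 4 h (0.255 to 0.648). Cxcl10 (chromosome 5, 92346638 to 92348889, minus strand) lies wholly within Art3 on the opposite strand. Art3 had 8, 7, 26 and 6 counts, so if the counting ignored strand, reads of the 2 genes could not be told apart.

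Cxcl16 differs from the other members in being made as a membrane-anchored protein, which binds Cxcr6 and is released when the protease Adam10 cuts it. It had 841, 1124, 1823 and 245 counts at 0, 2, 4 and 6 h, or 27.6, 26.0, 24.0 and 20.0 scaled CPM. On TMM scaling each library was lower than the one before, at 94.0% (85.9 to 103%), 86.9% (80.0 to 94.4%) and 72.5% (62.6 to 83.7%) of untreated. With total counts it was at 125, 110 and 81.4% at the same times. The line was −0.07 ± 0.02 log2 per h (SE; adjusted p = 0.0629 in edgeR), which did not pass. It passed with ribosomal protein scaling (−0.13, adjusted p = 0.0260) and with the deposited divisors (−0.16, adjusted p = 0.0138). The bend did not pass (−0.011 ± 0.0082 log2 per h squared, SE, edgeR adjusted p = 0.353).

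Relative to Ccl9, Cxcl16 was lower at each later time. The ratio of their counts was 0.210, 0.167, 0.119 and 0.0625 at 0, 2, 4 and 6 h, and no 2 of the 4 intervals overlapped. Cxcl16 lies on chromosome 11 (70453983 to 70459984, minus strand) and shares 552 bases with Zmynd15 on the opposite strand, which had 56, 63, 130 and 16 counts.

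**Figure D3:**
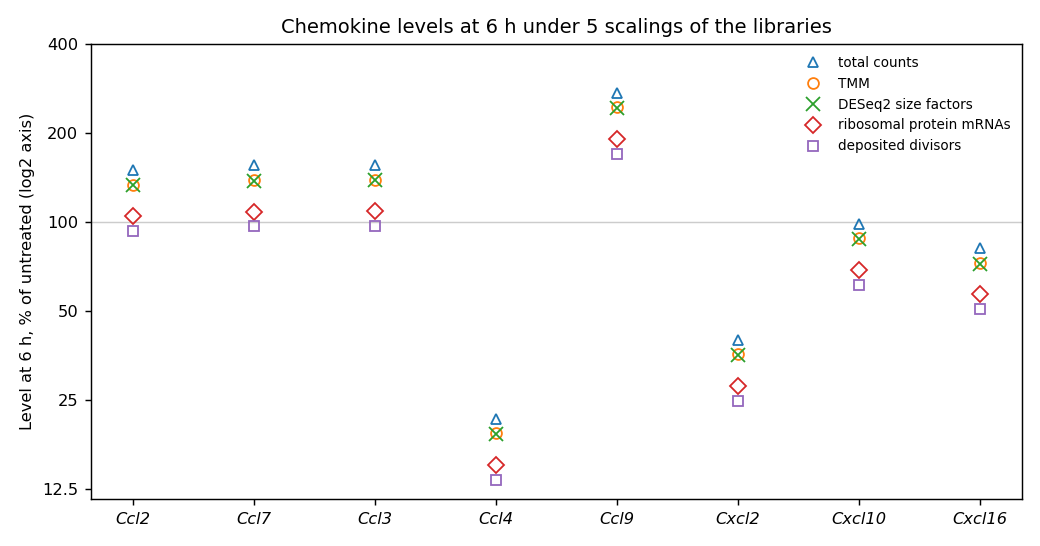
Level of each chemokine mRNA at 6 h as a percentage of the untreated library (log2 axis) under 5 scalings of the same counts. Ccl9 lies above 100% and Ccl4, Cxcl2, Cxcl10 and Cxcl16 below it under all 5, while Ccl2, Ccl3 and Ccl7 lie above it under 4 and below it with the deposited divisors (93.2, 96.9 and 96.6%).

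Levels of different genes were compared per kilobase of exon. In the untreated library Ccl3 was the highest of the 8 with 73.4 scaled CPM per kb (70.0 to 77.0), and it ranked 540 among 9818 tested genes with an exon length. Ccl9 followed with 43.1 (rank 953), then Ccl4 with 30.3 (rank 1436), Ccl2 with 11.9 (rank 3702) and Cxcl16 with 9.14 (rank 4502). Cxcl2, Cxcl10 and Ccl7 were at 0.667, 0.496 and 0.369 scaled CPM per kb. The counting intervals of the 5 abundant mRNAs did not overlap in this library, while those of Cxcl2, Cxcl10 and Ccl7 did.

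The order was different at 6 h. Ccl9 with 105 scaled CPM per kb (102 to 109) and Ccl3 with 102 (95.6 to 109) could not be told apart by counting error. Ccl2 came next with 15.9. Ccl4, which ranked above Ccl2 in the untreated library, was at 5.82 (4.28 to 7.74), and its interval overlapped that of Cxcl16 at 6.63 (5.83 to 7.51). Ccl7, Cxcl10 and Cxcl2 were at 0.510, 0.436 and 0.237 with overlapping intervals.

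**Figure D4:**
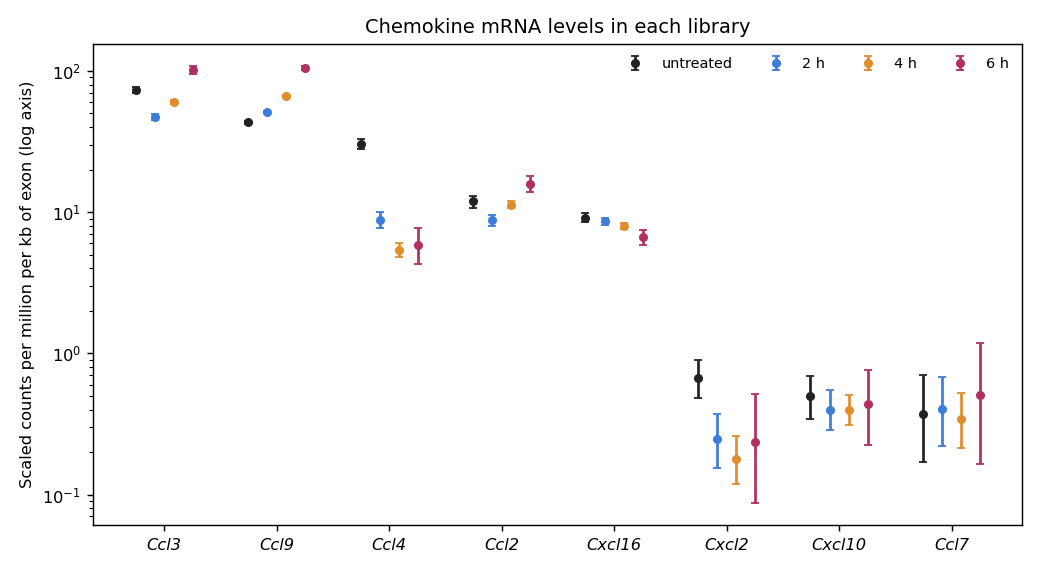
Scaled CPM per kb of exon (log axis) of the 8 chemokine mRNAs in each of the 4 libraries, with exact 95% intervals for counting error, ordered by the untreated level. Ccl3 and Ccl9 are the highest in every library, and Ccl4 lies next to them untreated (30.3) but is at 5.82 at 6 h.

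The authors' deposited table gives a half-life for each of the 8 genes. Recomputed from their normalized values, all 14957 deposited half-lives equal, within a relative tolerance of 1e-06, a straight line on the natural log scale held through the untreated value over 0, 2 and 4 h. None equals the same line with the 6 h library included. The shortest half-lives in the authors' deposited table among the 8 are those of Ccl4 (1.25 h) and Cxcl2 (1.55 h). The median over tested genes in the authors' deposited table is 6.38 h. It sorts negative values, which mean a rising line, below all positive ones. It is thus lower than a median that places rising lines as the longest. Of tested genes, 1.78% and 4.51% have a shorter positive value than Ccl4 and Cxcl2. For Ccl7, at 7.83 h, that share is 47.1%.

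The other members lie nearer the middle. The authors' deposited table gives 4.15 h for Ccl3, 4.63 h for Cxcl10, 5.54 h for Ccl2, 5.85 h for Cxcl16 and 7.83 h for Ccl7. For Ccl9 the authors' deposited table gives −36.1 h, a negative value that means a rising line, as for 14.6% of all genes with a value. With the 6 h library included in the same fit, the half-life was 1.68 h for Ccl4, 2.24 h for Cxcl2, 6.55 h for Cxcl10 and 6.02 h for Cxcl16. It was longer by over 2 times for Ccl2 (13.3 h), Ccl3 (11.0 h) and Ccl7 (19.6 h). For Ccl9 the same fit gave −10.8 h. The R2 of the line held through the untreated value, which is not a squared correlation, is 0.589 for Ccl9, 0.793 for Ccl2 and 0.830 for Ccl3 in the authors' deposited table, and 0.962 to 0.998 for the other members.

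Set beside the pentamers, the courses did not follow 1 order. At 2 h the lowest levels, in Ccl4 (29.0%) and Cxcl2 (36.8%), went with densities of 6.62 and 7.36 per kb. Ccl3, with the highest density, stood at 64.4%. Ccl9 and Cxcl16 had the lowest densities and stood at 119% and 94.0%. With 8 genes in the same 4 libraries this is a description only.

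**Figure D5:**
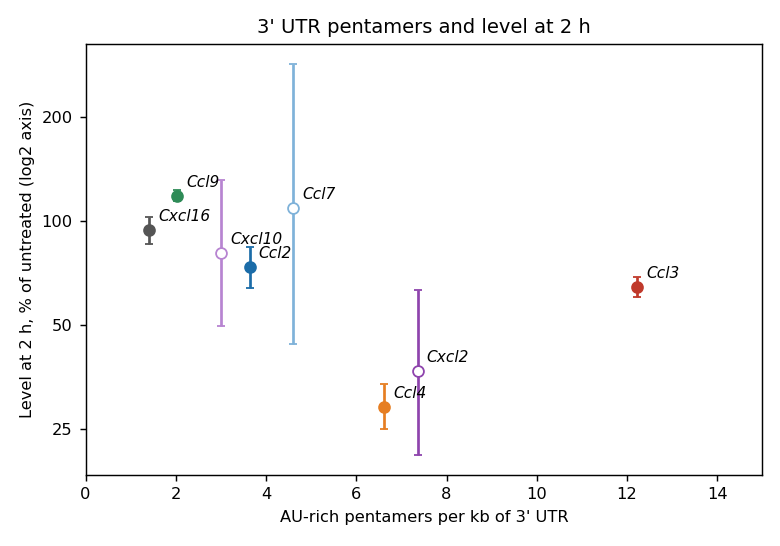
Level at 2 h as a percentage of the untreated library (log2 axis, exact 95% intervals for counting error) against AU-rich pentamers per kb of 3' UTR for the 8 chemokine mRNAs, with open circles for mRNAs below the abundance filter. Ccl4 and Cxcl2 are lowest at 6.62 and 7.36 per kb, Ccl3 is at 64.4% with 12.2 per kb, and Ccl9 and Cxcl16 are at the low end of density.

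Most other chemokine ligands were not detected. Of 30 others, 20 had 0 counts in all 4 libraries, 8 more were under the filter, and 1 of the 2 tested rose and bent upward (Cxcl14). Over all tested genes 8.63% rose and 19% bent upward. Cxcl14, a ligand found in many epithelia and also in some leukocytes, had 1387, 2158, 4934 and 1080 counts at 0, 2, 4 and 6 h. It stood at 194% (179 to 210%) of untreated at 6 h, with a line of 0.16 ± 0.02 log2 per h (SE, edgeR adjusted p = 0.0205). That line missed the threshold with ribosomal protein scaling (adjusted p = 0.0824), with the deposited divisors (0.118) and without the 4 h library (0.0566). Its bend (edgeR adjusted p = 0.0305) did not pass with no filter (0.106) or the Wald test (0.397) and was −0.017 with total counts. Ccl25, the other one tested, did not pass either test.

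Receptors named here for these chemokines were scarce. Ccr2 had 37, 51, 144 and 21 counts at 0, 2, 4 and 6 h, Ccr1 12, 12, 14 and 2, and Cxcr2 2, 1, 1 and 1. Cxcr3, the receptor of Cxcl10, had 157, 210, 340 and 36, and its line did not pass (−0.12 log2 per h, edgeR adjusted p = 0.111). Of 24 receptors, 14 had counts and 5 were tested, of which 1 fell and 1 rose, against 17.2 and 8.63% of all tested genes.

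The one that fell was Cx3cr1, the fractalkine receptor of monocytes and microglia and by far the most abundant receptor. It had 3968, 4765, 5888 and 727 counts at 0, 2, 4 and 6 h, and stood at 45.6% (42.1 to 49.4%) of untreated at 6 h. Its line was −0.20 ± 0.02 log2 per h (SE; adjusted p = 0.0145 in edgeR). It missed the threshold with total counts (adjusted p = 0.0740). The one that rose was Cxcr5, the B-cell follicle homing receptor, with 19, 55, 134 and 39 counts (0.37 ± 0.05 log2 per h, SE, edgeR adjusted p = 0.0220). It missed the threshold without the 4 h library (0.0699) or the 6 h library (0.0532).

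Downstream of the receptors, 8 of 27 signalling genes rose, 3 fell, 1 bent upward and 4 bent downward. Over all tested genes these shares were 8.63, 17.2, 19 and 12.1%, in the same order. The median line of the 27 was 0.05 log2 per h, against 0.00 over all tested genes. With total counts none of the 27 rose and none fell, and with the deposited divisors none rose and 10 fell. Of all 10837 tested genes, 207 rose and 1350 fell with total counts, and 78 rose and 5039 fell with the deposited divisors. The bends of the 27 turned too, with 1 upward and 14 downward under total counts, 11 and 0 under ribosomal protein scaling and 12 and 0 under the deposited divisors. Upward and downward bends over all tested genes numbered 697 and 4924, 3487 and 118, and 3329 and 71 under the same scalings. The G-protein subunit Gnb2 stood at 127% of untreated at 6 h on TMM scaling (edgeR adjusted p = 0.0417), but its line was −0.028 log2 per h with the deposited divisors and did not pass with total counts, ribosomal protein scaling, no filter or without the untreated, 2 h or 4 h library (adjusted p of 0.0615 or more). Arrb2, an arrestin that ends receptor signalling, fell to 66.6% of untreated at 6 h (−0.10 log2 per h, edgeR adjusted p = 0.0187), a call lost with total counts (0.572) and without the 4 h library (0.0764). Rgs1, which shortens G-protein signalling, bent upward with 24.5, 25.9 and 50.2% of untreated at 2, 4 and 6 h (edgeR adjusted p = 0.00100). Gnb1 bent downward and stood at 134% at 6 h (edgeR adjusted p = 0.0125), but the bend did not pass with ribosomal protein scaling (0.590), the deposited divisors (0.526) or the Wald test (0.0652). All 3 tested proteases that cut chemokines rose, against 8.63% of all tested genes. Among the 3 was Adam10, which releases Cxcl16 (142% at 6 h, edgeR adjusted p = 0.0448, with a line of −0.0040 under the deposited divisors). Over all 10837 tested genes, 207 rose with total counts, 137 with ribosomal protein scaling and 78 with the deposited divisors. In the same set 786 rose without the untreated library, 448 without the 2 h library and 25 without the 4 h library. With total counts, ribosomal protein scaling or the deposited divisors, none of the 3 rose, and none did without the 4 h library. Without the untreated or the 2 h library 1 did.

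Of 18 transcription factors known to act on chemokine genes, 8 fell, 12 bent upward and none rose, against 17.2, 19 and 8.63% of all tested genes. Their median line was −0.14 log2 per h, which was −0.047 without the untreated library and −0.21 without the 6 h library. In DESeq2 too none rose, and 10 fell. The count that fell was between 6 and 12 over the 5 scalings and 1 without the 4 h library. It was 5 with robust empirical Bayes. The count that bent upward was 6 with total counts, 5 with DESeq2 and 7 with no filter, and 3 rose without the untreated library. Spi1, the macrophage lineage factor, fell to 73.2% of untreated at 6 h (edgeR adjusted p = 0.0291), a call lost with total counts (0.707) and without the 4 h library (0.112). Irf5 bent upward (edgeR adjusted p = 0.0247), but its bend was −0.021 with total counts and did not pass with no filter (0.114) or the Wald test (0.315). Among all 10837 tested genes, between 1350 and 5039 fell over the 5 scalings. In the same set 351 fell without the 4 h library, 1753 with robust empirical Bayes and 2155 with the Wald test. Without the untreated library 786 rose. Upward bends over all tested genes numbered 697 with total counts, 938 with the Wald test and 1720 with no filter.

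Of 11 RNA-binding proteins and nucleases that act on chemokine mRNAs, none fell, 2 rose, 4 bent upward and 2 bent downward. Over all tested genes these shares were 17.2, 8.63, 19 and 12.1%, in the same order. The 4 of this list that bent upward were Zfp36, Zfp36l1 and Zfp36l2, which bind AU-rich elements and promote decay, and the nuclease Zc3h12a. Zfp36 had 1511, 666, 1301 and 267 counts at 0, 2, 4 and 6 h, and its bend (adjusted p = 0.00148 in edgeR) did not pass with DESeq2 (0.0555) or robust empirical Bayes (0.146), under which 2 of the 11 bent upward. Zfp36l2, the most abundant of them, stood at 29.9, 24.5 and 29.0% of untreated at 2, 4 and 6 h (bend 0.12 log2 per h squared, edgeR adjusted p = 9.7e-05). That bend narrowly missed the threshold with robust empirical Bayes (0.0547). Elavl1, which binds the same elements and stabilises mRNAs, rose to 143% at 6 h on TMM scaling (edgeR adjusted p = 0.0297), but its line was −0.0015 with the deposited divisors and did not pass with total counts (0.472), ribosomal protein scaling (0.0764) or without the 4 h library (0.102). Hnrnpd bent downward (edgeR adjusted p = 0.0495), a call lost under every alternative but total counts, with bends of 0.0017 under ribosomal protein scaling and 0.0023 under the deposited divisors. With ribosomal protein scaling or the deposited divisors none of the 11 rose, and 1 and 3 fell. Of all 10837 tested genes, 137 and 78 rose and 2598 and 5039 fell with these 2 scalings.

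Among 9 tested other cytokines, 1 fell, 2 rose and 5 bent upward, against 17.2, 8.63 and 19% of all tested genes. Il16 fell to 33.1% of untreated at 6 h (edgeR adjusted p = 0.0408, and 0.0897 without the 4 h library). Spp1, the matrix cytokine osteopontin, rose to 301% (294 to 307%, edgeR adjusted p = 0.0213, and 0.0505 with ribosomal protein scaling). Tnf, the classical example of an mRNA with AU-rich elements, had 2495, 583, 1135 and 280 counts at 0, 2, 4 and 6 h. Its bend was 0.20 log2 per h squared (adjusted p = 0.000639 in edgeR), and it did not pass with robust empirical Bayes (0.259). Over all 10837 tested genes, 697 bent upward, 207 rose and 1350 fell with total counts. With ribosomal protein scaling 137 of all tested genes rose, and without the untreated library 786 did. With total counts 2 of the 9 bent upward, 3 rose and 2 fell, with ribosomal protein scaling none rose, and without the untreated library 6 rose, with a median line of 0.19 log2 per h against 0.05 with all 4 libraries.

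For each chemokine the most similar courses were sought among 7721 or 7722 genes with a mean of at least 10 CPM, by the root mean square difference of the 3 log2 changes. Closest to Ccl3 was Cebpd, at a difference of 0.030, with 66.2, 83.0 and 136% of untreated at 2, 4 and 6 h. The second, Snhg12, was at 0.16. Closest to Ccl4 were Plekhg3 (0.026) and Kif18b (0.042), and closest to Ccl9 Cd36 (0.062) and Ctsh (0.074). Cd36 stood at 124, 150 and 231% of untreated.

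Cxcl16 had the closest neighbours, Thap4 (0.010) and Slc30a5 (0.013), and Ccl2 among the farthest, Speg and Zgpat (both 0.11). For the scarce members the neighbours were Scamp5 and Glt8d1 for Ccl7, Rnf111 and Maml1 for Cxcl2, and Tmem189 and Zfp335 for Cxcl10, at differences between 0.014 and 0.10. Likeness over 3 changes in the same 4 libraries is a description and carries no test.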

How the data were processed

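RNA of RAW264.7 cells at 0, 2, 4 and 6 h of actinomycin D was sequenced, with 1 library at each time, grouped by the treatment in the labels. Per the submitters' processing notes, STAR 2.5.3a, featureCounts and Subread 1.6.3 were used on mm10. For the annotation release, the use of strand and reads with several matches, the setting is not given in the sources. Raw counts per gene were used as deposited. The normalized signal was made by the authors as counts divided by 1 number per library, as recomputation showed. The authors' half-life and fit columns were taken as a score. Columns not matched to a sample numbered 0.

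Lines and quadratic curves over time came from edgeR 4.0.16 under R 4.3.3 (quasi-likelihood, TMM factors, mean CPM of at least 1, 10837 genes) and adjusted over all tested genes by the Benjamini-Hochberg method at 0.05. Each SE is the size of the estimate divided by the square root of its quasi-likelihood F statistic, so it is not separate from the p-value. The code was tested on simulated data. Log2 changes for lists and similar courses used a prior count of 0.5. Percentages of untreated have exact conditional binomial 95% intervals, and levels per kb exact binomial 95% intervals of the count out of the library total. Both cover counting error only. Nothing in the labels gives separate cultures, so p-values measure the spread of these 4 libraries around a course.

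Alternatives were DESeq2 1.42.0 size factors and Wald test, total counts, ribosomal protein scaling, the deposited divisors, no filter, a mean CPM of at least 5, each library left out and, added after seeing the data, robust empirical Bayes. The 8 members, the gene lists and the rule for named genes (all members, called and most abundant members of each list up to 8, and the 2 nearest courses) were chosen with earlier results of these data known. Outside ligands and receptors the text was shortened, after values were seen, mostly to the most abundant gene of each call. Ccr1, Ccr2, Cxcr2, Cxcr3, Zfp36 and Tnf were also named after their values were seen. The 3' UTRs came from GENCODE M21, to which 9818 of 10837 tested symbols matched (90.6%). Coordinates are 1-based. Some items are not reported here.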

Additional observations from a re-analysis of the deposited data

How the results depend on the processing

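No paired analysis was possible because each time had 1 library. Over all genes, the number that fell was 5039 with the deposited divisors and between 351 (without 4 h) and 2242 with a library left out, and the number that rose was 207 with total counts, 137 with ribosomal protein scaling, 78 with the deposited divisors, 561 with no filter, 1486 with DESeq2's Wald test and between 25 (without 4 h) and 1141 with a library left out. Upward bends numbered 697, 3487, 3329 and 938, and downward bends 4924, 118, 71 and 164, with total counts, ribosomal protein scaling, the deposited divisors and the Wald test. Of the chemokines, 2 fell with the deposited divisors, 0 with robust empirical Bayes and 0 to 1 with a library left out. With ribosomal protein scaling 1 fell, which was Cxcl16 and not Ccl4. The number that rose was 0 with ribosomal protein scaling, 0 with the deposited divisors and 1 to 3 with a library left out. With total counts 2 bent upward (Ccl3 and Ccl4) and 1 downward. The direction changed for the lines of Ccl2 (−0.0098 with the deposited divisors, −0.018 without 6 h) and Ccl3 (−0.0021 and −0.070), which reached 0.21 and 0.28 without the untreated library, and for the bend of Cxcl16 (0.0031 with ribosomal protein scaling, 0.0037 with the deposited divisors). With total counts the bends of Ccl9 (−0.010), Cxcl14 (−0.017) and Irf5 (−0.021) changed direction. With the deposited divisors the lines of Gnb2 (−0.028), Adam10 (−0.0040) and Elavl1 (−0.0015) did, and the bend of Hnrnpd did with ribosomal protein scaling (0.0017) and the deposited divisors (0.0023). The cause was not tested. A curve with a library left out has no residual degrees of freedom and was not run.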
